A study of Homo sapiens with 9 samples.

Results

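CDKN1A, MDM2, GDF15, SESN1, TP53INP1, ZMAT3, PLK2, CCNG1 and BTG2 are 9 genes named as targets of the transcription factor p53. They were chosen by gene symbol, with no threshold on a measured value but with earlier results of these data known, and were read from the deposited gene counts, exon counts and iCLIP site lists, where they are 9 of 20848 genes. The samples are all from U251, a human glioblastoma line. MSI1 knockdown cells (MSI1 KD) gave 3 RNA-seq libraries and control cells, which the labels call wild type, gave 3, so that expression and splicing with less of the RNA-binding protein Musashi1 (gene MSI1) could be set against control cells. A further 3 iCLIP samples of control cells list single nucleotides crosslinked to MSI1 by ultraviolet light, and knockdown cells have no such list. How the knockdown was made, and any agent that control cells were given, are not in the labels. Nothing states that the numbered replicates came from separate cultures, and the protocol text speaks of biological replicates being combined for sequencing, so the p-values measure only the spread between these libraries, which may be technical.

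p53 is switched on by DNA damage and other stresses and binds paired ten-base elements near its target genes. CDKN1A encodes p21, the cyclin-dependent kinase inhibitor through which p53 stops the cell cycle, and MDM2 encodes the ubiquitin ligase that marks p53 for destruction, closing a feedback loop. Many of these genes also respond to stress without p53, and U251 cells are known to carry mutant p53, so their RNA levels are not a measure of p53 activity. MSI1 binds short RNA words built around UAG in 3′ untranslated regions and has been described as a repressor of CDKN1A translation, which RNA levels do not show.

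MSI1 itself had 3.15, 5.11 and 2.26 CPM (library-scaled counts from edgeR) in MSI1 KD replicates 1, 2 and 3, against 16.0, 17.7 and 7.59 CPM in control replicates 1, 2 and 3. The groups did not overlap. On the log2 scale the difference was −1.97 with a standard error (SE) of 0.42, and edgeR's quasi-likelihood test gave adjusted p = 0.0699, or 0.00279 with the replicate number as a block. Gene counts summed to between 37082699 and 42427430 in MSI1 KD libraries and between 32919299 and 47277016 in control libraries. Among the libraries, control replicate 3 was unlike the other 5. It scored 80.6 on the first principal component, against −40.9 to 10.4 for the others, and its first exons held a median of 0.504% of a gene's exon counts, against 1.16% to 1.71% in MSI1 KD libraries and 1.38% and 1.46% in the other controls. Fold changes and calls of the 9 genes are therefore given with and without it, as are calls in the other lists that depend on it. Glial and glioma markers summed to between 6524 and 7538 CPM in MSI1 KD and between 6995 and 8177 CPM in control libraries, with OLIG2 at 0 counts in all 6, and leukocyte markers to at most 5.64 CPM in MSI1 KD and 7.21 CPM in control libraries. Markers listed for fibroblasts summed to 238 to 389 CPM in MSI1 KD against 94.7 to 219 CPM in control libraries, with 2 of the 5 (DCN and LUM) below the filter on low counts, and those for endothelium to 21.9 to 25.4 against 13.6 to 14.5 CPM, with 3 of 5 below it. Neuron markers summed to 63.2 to 69.4 CPM in MSI1 KD against 61.2 to 67.1 CPM in control libraries. Marker genes also moved within lists, and some are named after their values were seen. Of 8 tested glial and glioma markers 4 had a log2 fold change above 0 and 4 below. SOX2 fell, at 89.9 ± 5.0 CPM in MSI1 KD and 152 ± 15.02 CPM in control libraries (log2 fold change −0.76, adjusted p = 0.0432 by edgeR, and 0.0169 without control replicate 3). The SOX2 call was lost with DESeq2's size factors (adjusted p = 0.0646 by edgeR), without the filter (0.0700) and with exon counts summed per gene (0.0575). It was also lost without any library other than control replicate 3 (adjusted p = 0.109 to 0.253 by edgeR). EGFR, at 102 ± 3.94 CPM in MSI1 KD and 151 ± 4.45 CPM in control libraries, fell with the block (−0.57, adjusted p = 0.0661 by edgeR and 0.00673 with the block). SOX9, of the same list, rose with the block, at 130 ± 29.0 CPM in MSI1 KD and 92.4 ± 15.7 CPM in control libraries (adjusted p = 0.328 by edgeR and 0.0143 with the block), although its groups overlapped. COL1A1 (1.37, adjusted p = 0.135 by edgeR and 0.0155 with the block) and KDR (0.75, adjusted p = 0.0695 by edgeR and 0.00980 with the block) rose with the block. So did SNAP25, a neuron marker, at 3.94 ± 0.626 CPM in MSI1 KD and 1.93 ± 0.765 CPM in control libraries (1.03, adjusted p = 0.194 by edgeR and 0.0291 with the block). Of 3 tested neuron markers 2 had a log2 fold change above 0 and 1 below. With the block 17.3% of all genes tested passed. Their part in the results was not tested.

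The sequences that make these genes of interest here are the p53 elements of their promoters and the Musashi words of their 3′ untranslated regions. RefSeq promoters (build GRCh38.p14, from 250 bases before to 50 bases after each start) were matched for 8 of the 9 genes, 15 promoters in all. A pair of p53 decamers end to end, with at most 2 mismatches, was in overlapping promoters of 1 gene, MDM2, and in 0.649% of the 35116 promoters of the table. An exact single decamer was in 2 of the 15, those of PLK2 and of 1 start of SESN1, and in 6.63% of the table. The decamer pattern reads the same on both strands. No match says only that the pattern is not in this window. The MDM2 promoter is shown because it is the internal promoter through which p53 is known to drive this gene (chr12:68808767-68809016, plus strand, GRCh38.p14), over the 250 bases before the start, with the pair, which begins 94 bases before the start, in capitals.
MDM2 internal promoter: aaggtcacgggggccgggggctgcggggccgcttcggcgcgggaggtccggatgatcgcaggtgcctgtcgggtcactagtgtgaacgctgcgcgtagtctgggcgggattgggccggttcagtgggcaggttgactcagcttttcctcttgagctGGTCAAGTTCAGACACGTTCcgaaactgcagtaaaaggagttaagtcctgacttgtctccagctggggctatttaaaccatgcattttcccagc

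Musashi words (GTAGT and ATAGT and the longer forms GTTAGT and ATTAGT and GTTTAGT and ATTTAGT, sense strand only, written with T for U, overlaps counted) were sought in the 3′ untranslated regions of GENCODE release 29 (GRCh38). CDKN1A had 1 word in 1539 bases, MDM2 had 3 in 958 (an annotated region far shorter than the 6158 bases of its last exon in the deposited tables), BTG2 had 5 in 2164, and CCNG1 had 4 in 1346. SESN1 had 4 in 1107 bases, ZMAT3 had 14 in 7794 and TP53INP1 had 17 in 4507. The annotated region of ZMAT3 is far longer than the 1492 bases of its last exon in the deposited exon counts. PLK2 and GDF15 had 0, in 601 and 241 bases. At least 1 word was in 65.1% of all 18187 such regions of 100 bases or more, with a median of 1.33 words per kilobase, so holding a word does not set these genes apart. The densest stretches of 3 genes are printed, words in capitals, because CDKN1A is the gene whose translation MSI1 has been described to repress, and because MDM2 and BTG2 hold several words close together.
CDKN1A 3′ region: ggctgggaGTAGTtgtctttc
MDM2 3′ region: ctactttgGTAGTggaATAGTgaatactt
BTG2 3′ region: aaaaataaATAGTAGTAGTatgtttgt
In BTG2 3 words share their ends within a single run, and in MDM2 2 words lie 3 bases apart.

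The 9 genes differed widely in level. Per exonic length, PLK2, a polo-like kinase, was the highest, at 186 ± 26.5 RPKM in MSI1 KD and 330 ± 49.7 RPKM in control libraries (CPM per kilobase of exons, SD, n = 3 each). CCNG1, which encodes cyclin G1, was next, at 61.6 ± 11.1 RPKM in MSI1 KD and 50.1 ± 17.6 RPKM in control libraries. MDM2 followed at 23.1 ± 2.39 and 26.7 ± 5.45 RPKM in MSI1 KD and control libraries, and BTG2 at 10.7 ± 1.16 and 14.5 ± 1.46 RPKM. None of these 4 overlapped its neighbour in the order, in either group. Below them the levels ran together in MSI1 KD libraries, where ZMAT3 (7.57 RPKM), CDKN1A (5.31), SESN1 (3.56), GDF15 (2.66) and TP53INP1 (2.18) each overlapped the next. In control libraries CDKN1A (7.55 RPKM) overlapped ZMAT3 (7.46), SESN1 (4.82) overlapped GDF15 (4.62), and TP53INP1, at 0.988 ± 0.399 RPKM, lay below all the others. There CDKN1A, which ran from 4.21 to 9.89 RPKM, also overlapped SESN1 (3.82 to 6.41) and GDF15 (3.45 to 6.49). Over the 6 libraries together PLK2 was at or above 98.7% of the 13856 tested genes per length, MDM2 at or above 78.3%, CDKN1A 44.6% and TP53INP1 23.0%.

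**Figure D1:**
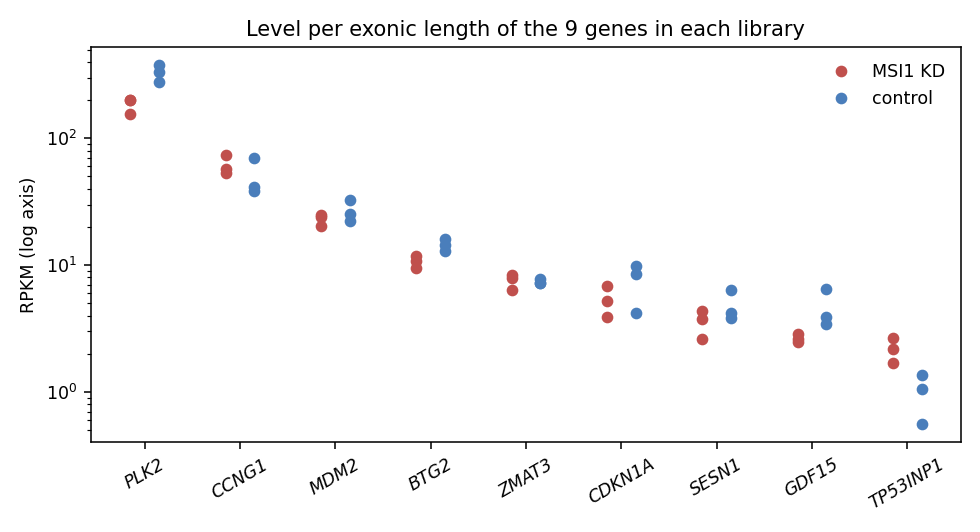
Level per exonic length of each gene (RPKM, log axis) in each library, genes ordered from high to low, with MSI1 KD left of control. PLK2 lies at the top in both groups, at 186 RPKM in MSI1 KD and 330 RPKM in control libraries on average, and TP53INP1 at the bottom, where the MSI1 KD libraries lie above the controls.

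Of the 9 genes, all of which passed the filter on low counts, edgeR's quasi-likelihood test called 0 at the threshold of 0.05 on the adjusted p, against 1.67% of the 13856 genes tested (0.772% higher and 0.902% lower). At an unadjusted p below 0.05 there were 4, against 15.5% of all genes, and DESeq2 called 2, TP53INP1 higher and PLK2 lower, against 5.76%. With the replicate number as a block 3 of 9 passed, against 17.3% of all genes: TP53INP1 rose, against 7.04% of genes higher, and PLK2 and BTG2 fell, against 10.3% lower. Without control replicate 3 the test without a block also called 3, TP53INP1 and CCNG1 higher and PLK2 lower, against 7.31% of all genes. In 4 genes the groups did not overlap, TP53INP1 higher and GDF15, PLK2 and BTG2 lower in MSI1 KD, against 22.8% of all genes (8.73% higher and 14.1% lower). The median log2 fold change of the 9 genes was −0.43, beside −0.04 for all genes tested, with 3 above and 6 below 0. Without control replicate 3 that median was −0.11, beside −0.01 for all genes.

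**Figure D2:**
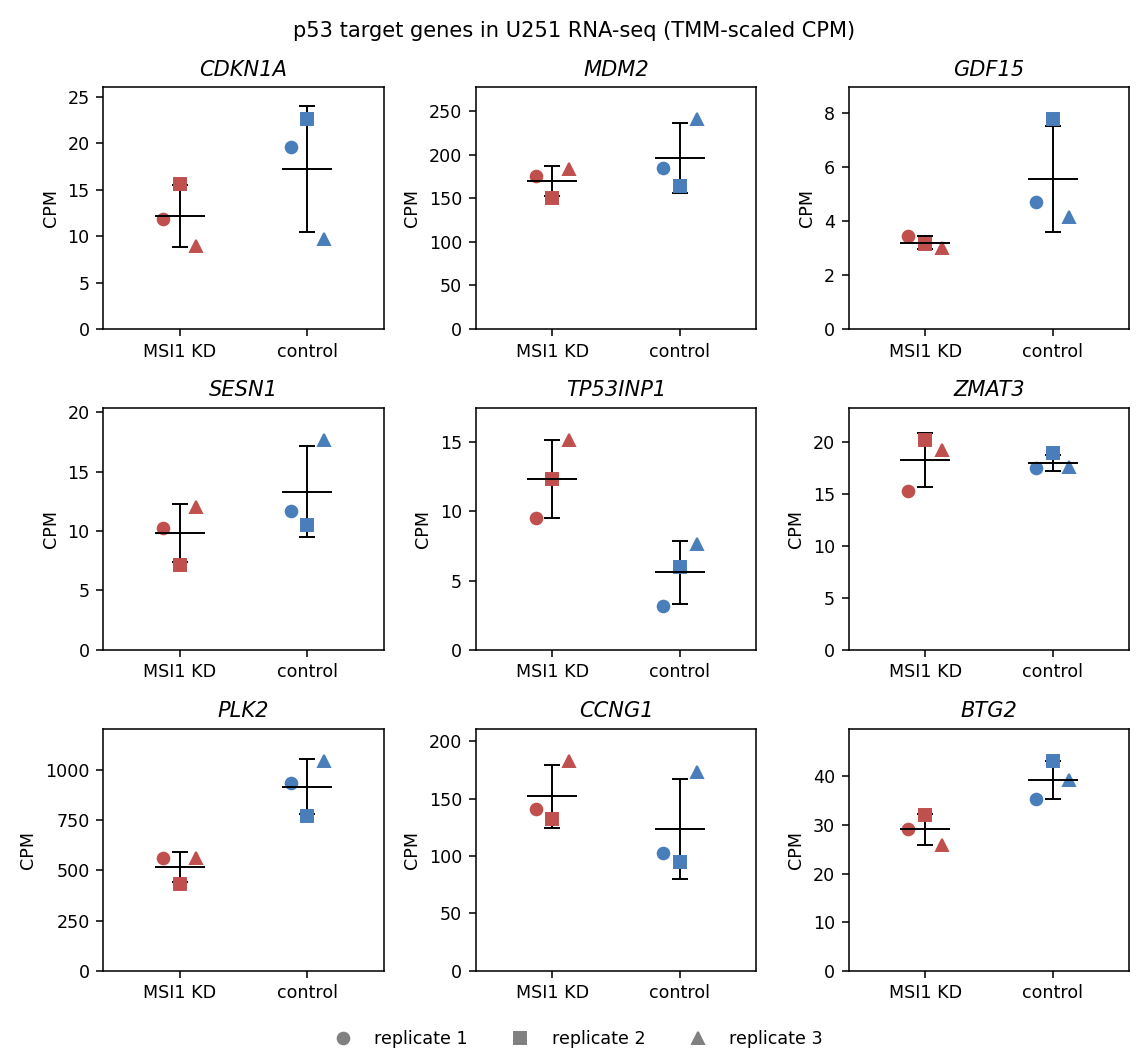
TMM-scaled CPM of each of the 9 genes in each library, MSI1 KD left of control, with a panel per gene. Marks give the replicate number, the long bar is the mean and the error bar the SD (n = 3 per group). The groups are apart in GDF15, TP53INP1, PLK2 and BTG2, and control replicate 3 (triangle) lies close to the MSI1 KD libraries in CDKN1A and CCNG1.

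Among the genes that act on the cell cycle, CDKN1A (chromosome 6, 36754437 to 36763087, hg18, plus strand) had 11.9, 15.6 and 8.98 CPM in MSI1 KD replicates 1, 2 and 3, against 19.6, 22.7 and 9.65 CPM in control replicates 1, 2 and 3. The groups overlapped only through control replicate 3, whose value lay inside the MSI1 KD range, and each MSI1 KD library was below the control of its own number. Its log2 fold change was −0.51 (standard error 0.35) with an adjusted p of 0.584 by edgeR, 0.0970 with the block and 0.0595 without control replicate 3 (log2 fold change −0.74), so the call was not made under any of them. The raw counts behind these values were 357 to 596 in MSI1 KD and 310 to 885 in control libraries.

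PLK2, which acts in centriole duplication and in neurons and is induced by p53, is the gene with the lowest unadjusted p of the 9 (chromosome 5, 57785567 to 57791670, minus strand). It had 561, 433 and 562 CPM in MSI1 KD replicates 1, 2 and 3, against 934, 772 and 1047 CPM in control replicates 1, 2 and 3. The highest MSI1 KD library was below the lowest control. PLK2's log2 fold change was −0.82 (standard error 0.17), with an adjusted p of 0.0663 by edgeR, just over the threshold of 0.05, 0.0165 by DESeq2 and 0.00239 with the block. Within same-numbered replicates the log2 differences were −0.74, −0.83 and −0.90. Without control replicate 3 the value was −0.65 (adjusted p = 0.0277).

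BTG2, an anti-proliferative protein that recruits mRNA deadenylases (chromosome 1, 201541287 to 201545352, plus strand), had 29.2, 32.1 and 25.9 CPM in MSI1 KD replicates 1, 2 and 3, against 35.3, 43.2 and 39.2 CPM in control replicates 1, 2 and 3. The groups did not overlap. The log2 fold change of −0.43 (standard error 0.16) had an adjusted p of 0.245 by edgeR and 0.0418 with the block, and without control replicate 3 it was −0.38 (adjusted p = 0.240 without a block).

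CCNG1, cyclin G1, works with protein phosphatase 2A in the regulation of MDM2 (chromosome 5, 162797155 to 162804600, plus strand). It had 141, 132 and 183 CPM in MSI1 KD replicates 1, 2 and 3, against 102, 95.0 and 173 CPM in control replicates 1, 2 and 3. Control replicate 3 alone lay within the MSI1 KD range, and the other controls were below it. For CCNG1 the log2 fold change was 0.30 (standard error 0.26, adjusted p = 0.684 by edgeR and 0.0709 with the block). Without control replicate 3 it was 0.69 with an adjusted p of 0.0293, so the call turns on that library.

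In the feedback loop, MDM2 (chromosome 12, 67488238 to 67525478, plus strand) had 176, 150.4 and 184 CPM in MSI1 KD replicates 1, 2 and 3, against 185, 164 and 241 CPM in control replicates 1, 2 and 3. The groups overlapped, and the difference was largest in replicate 3. The log2 fold change of −0.21 (SE 0.18, adjusted p = 0.672 by edgeR and 0.177 with the block) turned to 0.03 without control replicate 3 (adjusted p = 0.957 by edgeR). Its raw counts ran from 5733 to 8377 per library, so its error comes from the spread between libraries and not from low counts.

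Among the stress-response genes, TP53INP1, a stress-induced nuclear protein that also takes part in autophagy (chromosome 8, 96007377 to 96030791, minus strand), had 9.49, 12.3 and 15.2 CPM in MSI1 KD replicates 1, 2 and 3. Control replicates 1, 2 and 3 had 3.16, 5.97 and 7.63 CPM. Every MSI1 KD library was above every control, and in both groups replicate 1 was the lowest and replicate 3 the highest. TP53INP1's log2 fold change was 1.14 (standard error 0.35), with an adjusted p of 0.166 by edgeR, 0.0265 by DESeq2 and 0.00902 with the block. Within same-numbered replicates the log2 differences were 1.57, 1.04 and 0.99. Without control replicate 3 the log2 fold change was 1.50 (adjusted p = 0.00742).

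GDF15, a secreted stress cytokine of the TGF-beta superfamily (chromosome 19, 18357968 to 18360986, plus strand), had 3.45, 3.15 and 2.99 CPM in MSI1 KD replicates 1, 2 and 3, against 4.71, 7.79 and 4.14 CPM in control replicates 1, 2 and 3. The groups did not overlap, and control replicate 2 was well above the other controls. GDF15 had a log2 fold change of −0.79 (SE 0.28, adjusted p = 0.230 by edgeR and 0.0710 with the block), and −0.90 without control replicate 3 (adjusted p = 0.0519). The raw counts were 119 to 147 in MSI1 KD and 133 to 303 in control libraries.

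SESN1, a sestrin that restrains mTORC1 (chromosome 6, 109414338 to 109521970, minus strand), had 10.3, 7.16 and 11.996 CPM in MSI1 KD replicates 1, 2 and 3, against 11.7, 10.5 and 17.7 CPM in control replicates 1, 2 and 3. The groups overlapped, although each MSI1 KD library was below the control of its number. SESN1 had a log2 fold change of −0.44 (SE 0.28, adjusted p = 0.548 by edgeR and 0.0888 with the block) and −0.11 without control replicate 3 (adjusted p = 0.864 by edgeR).

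ZMAT3, a zinc finger RNA-binding protein (chromosome 3, 180224219 to 180272278, minus strand), had 15.2, 20.2 and 19.2 CPM in MSI1 KD replicates 1, 2 and 3, against 17.5, 18.9 and 17.5 CPM in control replicates 1, 2 and 3. The controls lay inside the MSI1 KD range. The log2 fold change was 0.02 with a standard error of 0.17 (adjusted p = 0.977 by edgeR), the smallest in size of the 9. Without control replicate 3 the log2 fold change of ZMAT3 was 0.06 (adjusted p = 0.914 by edgeR).

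Most of the 9 genes belong to families whose other members are not all p53 targets. Of 18 such relatives 17 were tested, and 0 of them changed by edgeR's quasi-likelihood test without the block. With the block 3 rose and 4 fell, against 7.04% of all genes higher and 10.3% lower, and DESeq2 called 3 higher and 0 lower, against 5.76% in both directions. In 9 of the 17 the groups did not overlap, 3 higher and 6 lower, against 22.8% of all genes (8.73% higher and 14.1% lower). Without control replicate 3 the test called 3 higher (SESN3, TP53INP2 and CCNG2) and 2 lower (SESN2 and TOB2), against 7.31% of all genes. Their median log2 fold change was −0.16, beside −0.04 for all genes. TP53INP2, a regulator of autophagy, was at 37.8 ± 4.53 CPM in MSI1 KD and 21.2 ± 3.15 CPM in control libraries (log2 fold change 0.83, adjusted p = 0.0726 by edgeR and 0.00547 with the block), in the same direction as TP53INP1. CCNG2, an atypical cyclin, was at 21.5 ± 3.92 CPM in MSI1 KD and 10.8 ± 3.30 CPM in control libraries (1.00, adjusted p = 0.119 by edgeR and 0.00632 with the block).

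Of the other sestrins, 1 was higher and 1 lower with the block, and a difference between them was not tested. SESN3 was at 42.9 ± 2.57 CPM in MSI1 KD and 24.1 ± 5.70 CPM in control libraries (log2 fold change 0.83, adjusted p = 0.0896 by edgeR and 0.00949 with the block). SESN2, by contrast, was at 14.0 ± 2.32 CPM in MSI1 KD and 26.2 ± 8.54 CPM in control libraries (−0.90, adjusted p = 0.170 by edgeR and 0.0132 with the block). TOB2, of the family of BTG2, was at 45.4 ± 6.89 CPM in MSI1 KD and 76.8 ± 17.3 CPM in control libraries (−0.76, adjusted p = 0.142 by edgeR and 0.00630 with the block). BTG1 is named after its values were seen, at 61.8 ± 4.84 CPM in MSI1 KD and 91.7 ± 24.8 CPM in control libraries (−0.57, adjusted p = 0.241 by edgeR and 0.0327 with the block, and −0.26 without control replicate 3). ZMAT2 was at 57.8 ± 9.17 CPM in MSI1 KD and 87.1 ± 11.0 CPM in control libraries (−0.59, adjusted p = 0.158 by edgeR and 0.0103 with the block), beside ZMAT3 at 0.02. MDM4, the partner of MDM2, also named after its values were seen, was at 90.0 ± 2.14 CPM in MSI1 KD and 110 ± 10.9 CPM in control libraries and was not called (−0.29, adjusted p = 0.354 by edgeR and 0.0603 with the block, and −0.14 without control replicate 3). Values are means ± SD (n = 3 each).

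**Figure D3:**
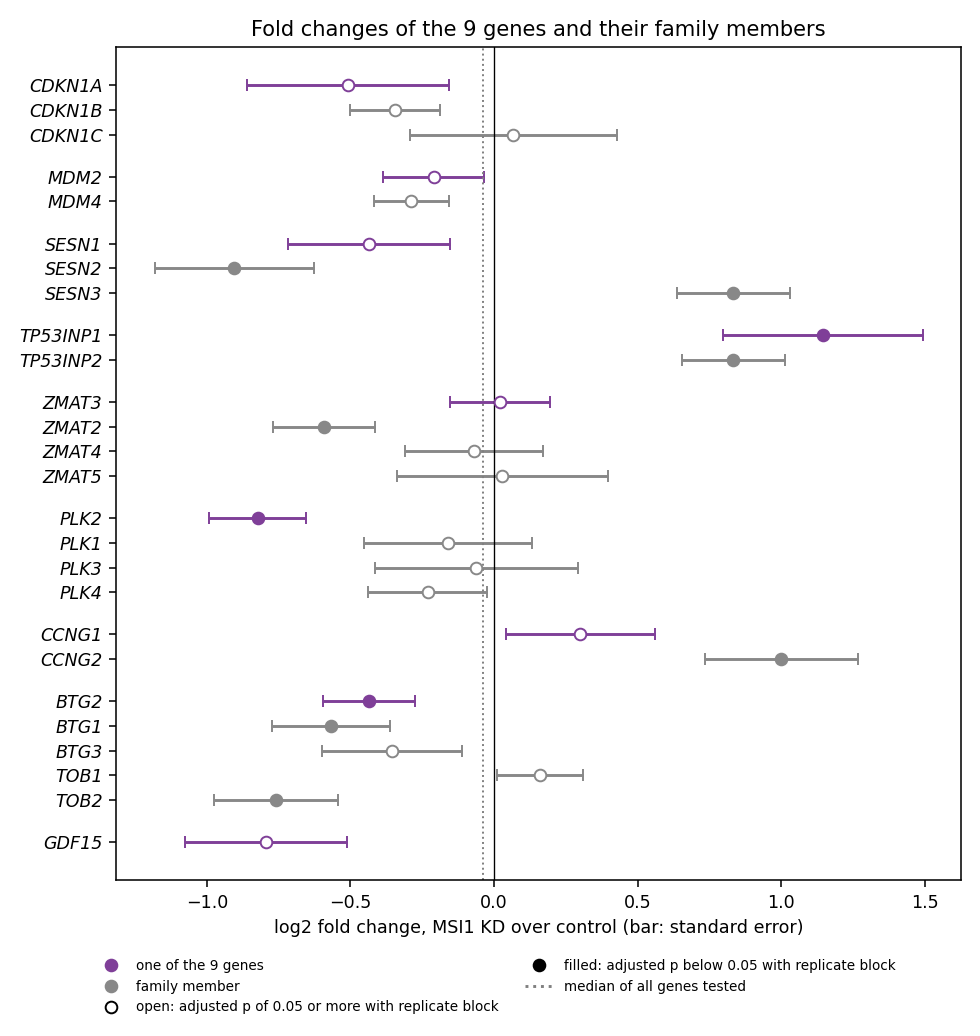
Log2 fold changes, MSI1 KD over control, of the 9 genes and of the tested members of their families, grouped by family, with standard errors. Filled points passed an adjusted p of 0.05 with the replicate block, and the dotted line is the median of all genes tested (−0.04). TP53INP1 and TP53INP2 lie together above 0, while SESN3 (0.83) lies above 0 and SESN2 (−0.90) below it.

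Other genes described as p53 targets were listed by role. For these lists and the next ones the share of all genes called was 1.67% without the block, 17.3% with it (7.04% higher and 10.3% lower) and 7.31% without control replicate 3. Of 13 tested targets that act in cell death, 0 rose and 1 fell by edgeR's test, with a median log2 fold change of 0.09. The fall was in PMAIP1, which encodes the BH3-only protein NOXA, at 40.8, 31.9 and 44.1 CPM in MSI1 KD replicates 1, 2 and 3, against 93.8, 88.3 and 142 CPM in control replicates 1, 2 and 3. The groups were well apart, with a log2 fold change of −1.47 (SE 0.23, adjusted p = 0.0330 by edgeR and 0.00218 with the block). The call held without control replicate 3 (adjusted p = 0.00115 by edgeR) and was lost without any other library (0.0849 to 0.212). With the block PHLDA3, an AKT inhibitor, also passed, higher, at 11.4 ± 3.93 CPM in MSI1 KD and 5.35 ± 3.26 CPM in control libraries, although its groups overlapped (log2 fold change 1.08, adjusted p = 0.425 by edgeR and 0.0272 with the block). Leaving out control replicate 3, at 1.59 CPM, gave 0.71 (adjusted p = 0.155 by edgeR).

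Of 9 tested targets in cell cycle arrest and DNA repair 0 were called by edgeR without the block, and with the block 1 rose and 2 fell (median −0.13). RPRM, a mediator of G2 arrest, was at 5.27 ± 1.25 CPM in MSI1 KD and 19.6 ± 9.95 CPM in control libraries (log2 fold change −1.90, adjusted p = 0.0870 by edgeR and 0.00721 with the block). GADD45A, a DNA damage response gene, was at 24.7 ± 3.47 CPM in MSI1 KD and 36.4 ± 6.59 CPM in control libraries (−0.56, adjusted p = 0.229 by edgeR and 0.0163 with the block). RRM2B, a ribonucleotide reductase subunit, was at 59.2 ± 9.03 CPM in MSI1 KD and 42.6 ± 9.59 CPM in control libraries (0.48, adjusted p = 0.331 by edgeR and 0.0228 with the block). Of these 9, edgeR's test without a block called 2 when control replicate 3 was left out, RPRM (−2.20, adjusted p = 7.71e-05) and RRM2B (0.74, adjusted p = 0.0214).

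Of 14 tested targets in metabolism and other roles 0 were called by edgeR without the block, and with the block 1 rose and 2 fell (median −0.09). DRAM1, a lysosomal inducer of autophagy, was at 59.3 ± 6.27 CPM in MSI1 KD and 37.8 ± 6.05 CPM in control libraries (0.65, adjusted p = 0.120 by edgeR and 0.00960 with the block). ATF3, a stress-induced transcription factor, was at 10.1 ± 2.11 CPM in MSI1 KD and 16.0 ± 3.71 CPM in control libraries (−0.67, adjusted p = 0.247 by edgeR and 0.0380 with the block, and −0.43 without control replicate 3). SESN2, given above, was the other fall. Of the 14, the same test without a block called 2 when control replicate 3 was left out, DRAM1 (0.85, adjusted p = 0.00713) and SESN2 (−1.08, adjusted p = 0.00335). SESN2 and PLK3 stand in 2 lists, as targets and as relatives of the 9 genes, and MDM4 is listed as a relative and as a regulator.

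Of 20 tested regulators and relatives of p53, 0 rose and 1 fell by edgeR's test, and 2 fell with the block (median −0.17). USP7, the deubiquitinase that acts on both MDM2 and p53, had 148, 128 and 161 CPM in MSI1 KD replicates 1, 2 and 3, against 258, 239 and 303 CPM in control replicates 1, 2 and 3. Its groups were apart, with a log2 fold change of −0.87 (SE 0.15, adjusted p = 0.0420 by edgeR and 0.00210 with the block). The call was lost with DESeq2's size factors (adjusted p = 0.0646 by edgeR), without the filter (0.0589), with exon counts summed per gene (0.0587) and without any library other than control replicate 3 (0.109 to 0.269). TP53BP2, a p53-binding protein of the ASPP family, was at 78.6 ± 3.63 CPM in MSI1 KD and 96.8 ± 2.86 CPM in control libraries (−0.30, adjusted p = 0.294 by edgeR and 0.0439 with the block). CDKN2A, whose ARF product restrains MDM2, had 0 counts in all 6 libraries.

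Of 10 tested partners of p21, the cyclins and kinases that CDKN1A's product binds and PCNA, 0 were called by edgeR without the block. With the block 2 rose and 1 fell (median −0.14). CCNE2, cyclin E2, was at 36.9 ± 6.76 CPM in MSI1 KD and 17.9 ± 6.75 CPM in control libraries (log2 fold change 1.04, adjusted p = 0.132 by edgeR and 0.00817 with the block). CDK6 was at 133 ± 3.87 CPM in MSI1 KD and 90.9 ± 18.0 CPM in control libraries (0.55, adjusted p = 0.170 by edgeR and 0.0231 with the block). CCNE1, cyclin E1, was lower, at 10.3 ± 0.390 CPM in MSI1 KD and 14.9 ± 1.00 CPM in control libraries (−0.53, adjusted p = 0.1685 by edgeR and 0.0361 with the block). Of the 10, edgeR's test without a block called 2 when control replicate 3 was left out, CCNE2 (1.45, adjusted p = 0.000866) and CDK6 (0.76, adjusted p = 0.00978). CCND2 was below the filter, with at most 1 count per library.

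The pattern of CDKN1A over the 6 libraries was ranked against other genes, among 10701 with enough counts, by the root mean square difference of log2 CPM centred on each gene's mean. The closest were NLGN2 (0.06), a neuronal adhesion protein, and CASZ1 (0.06), FOXK1 (0.07), C7orf43 (0.07) and NLRC5 (0.08). NLGN2 had 39.0, 49.4 and 31.5 CPM in MSI1 KD replicates 1, 2 and 3, against 65.2, 73.9 and 30.1 CPM in control replicates 1, 2 and 3. As in CDKN1A, control replicate 3 was at the level of the MSI1 KD libraries while the other controls were above them. None of the 8 other p53 targets was near. GDF15 was the closest of them, at rank 1521 with a difference of 0.35, and TP53INP1 the farthest, at rank 10658 with 1.12.

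Exon use was compared because the study examined splicing. The files list 60 exons of the 9 genes, of which 56 were tested among 123109 exons by edgeR's diffSpliceDGE, each against the other exons of its gene. At an adjusted p below 0.05 there were 0 exons of the 9 genes, as in all genes (0%), and 0 of theirs against 263 of all (0.214%) had an unadjusted p below 0.05. Over all exons that share is far below what a limit of 0.05 passes where nothing changes, so this test was conservative. Its 0 calls therefore do not show that exon use was unchanged. With the replicate block 0 of their exons were called, against 10 of all (0.00812%). The first exon of PLK2 came closest, with an unadjusted p of 0.0504 in edgeR's diffSpliceDGE and an adjusted p of 0.211 in its fit with the block. That exon held 3.56%, 5.71% and 2.90% of PLK2's exon counts in MSI1 KD replicates 1, 2 and 3, against 3.31%, 4.15% and 0.978% in control replicates 1, 2 and 3. Control replicate 3 alone was far below the rest.

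The same library had the lowest share of the first exon in 6 of the 9 genes (CDKN1A, MDM2, GDF15, PLK2, CCNG1 and BTG2), against 55.9% of 12629 genes, and the highest share of the last exon in 5 of 9, against 45.3%. In CDKN1A the last exon, which holds the 3′ untranslated region, had 84.6%, 81.0% and 88.3% of the counts in MSI1 KD replicates 1, 2 and 3, against 84.7%, 83.6% and 95.6% in control replicates 1, 2 and 3. The second exon of CDKN1A had 14.3%, 17.7% and 9.78% in MSI1 KD, against 14.7%, 15.1% and 3.81% in control replicates 1, 2 and 3. Replicate 3 was highest for the last exon and lowest for the second in both groups. The part of this shift in the gene-level values of control replicate 3 was not tested. The last exon of MDM2, of 6158 bases, held 74.4%, 71.4% and 72.8% of its counts in MSI1 KD, against 71.8%, 72.6% and 73.3% in control replicates 1, 2 and 3.

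In control cells MSI1 iCLIP sites lay in all 9 genes, but unevenly. List 1 alone held sites on the strand of the gene in 14916 of the 20848 genes, so holding a site does not set these genes apart. On the strand of the gene there were 264, 28 and 48 sites in lists 1, 2 and 3, which hold 1746795, 145718 and 208722 sites in all, so list 1 dominates the counts. Of these 340 sites 130 were in exons, 108 of them in last exons, and 210 in introns. Last exons make up 20701 of the 29636 exonic bases of the 9 genes. Per kilobase of exon the 9 genes had 4.39 sites and all genes 4.77, and per kilobase of intron 0.972 and 1.50. The lists come with no input and no knockdown sample, so these counts are a description with no test.

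MDM2 and SESN1 had nearly equal numbers of sites in different places. MDM2 had 96, of which 51 were in the last exon, 4 in other exons and 41 in introns. SESN1 had 95, of which 90 were in introns, spread over a gene of 107633 bases. BTG2 had 18 sites, 17 of them in list 1 and all in the last exon, which makes up 2498 of its 2711 exonic bases. Whether these sites lie at the words shown above was not tested. CDKN1A had 8 sites, all from list 1, with 3 in the last exon, 1 in another exon and 4 in introns. Among them the lowest listed p was 0.249, at position 36761659 in the last exon. GDF15 had 1 site, in an intron and from list 3 alone, and its listed p was not below 0.05.

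PLK2 had 38 sites, 6 in the last exon, 15 in other exons and 17 in introns. ZMAT3 had 53, of which 44 were intronic, TP53INP1 had 21, of which 13 were in the last exon, and CCNG1 had 10. Per exonic kilobase PLK2 (7.54), MDM2 (7.47) and BTG2 (6.64) were at or above 83.2%, 83.0% and 80.8% of the tested genes, while CDKN1A (1.75) was at or above 47.9% and the median gene had 1.90. PLK2 is also the gene with the highest RNA level, and the part of RNA level in the number of sites was not tested.

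**Figure D4:**
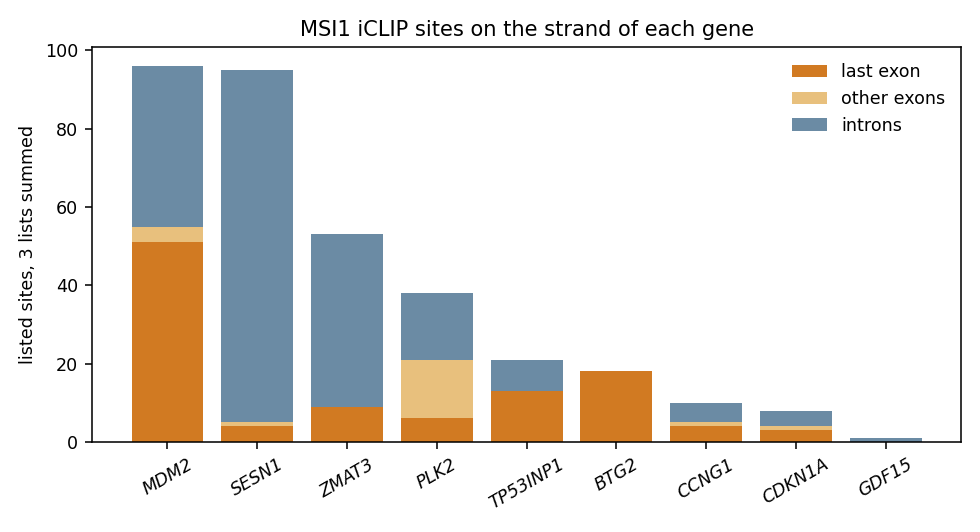
Number of listed MSI1 iCLIP sites on the strand of each gene, summed over the 3 lists from control cells, in last exons, other exons and introns. MDM2 (96) and SESN1 (95) have the most, SESN1 almost all in introns, and the 18 sites of BTG2 are all in its last exon, which makes up 2498 of its 2711 exonic bases.

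A position was in all 3 lists in 0 of the 9 genes, against 4.69% of the 20848 genes, which held 3298 such positions. In at least 2 lists there were 2 positions, 1 each in MDM2 and TP53INP1 and both in last exons, while 29.0% of all genes held any. They are named after their values were seen. The MDM2 position, 67519936 on chromosome 12 (hg18), is base 616 of the last exon, with listed p-values of 0.321 and 0.324 in lists 1 and 2. The TP53INP1 position is base 1385 of its last exon of 4756, with listed p-values of 1.0 and 0.0437 in lists 1 and 3. Allowing 5 bases gave 1 place common to all 3 lists, in MDM2, while 10.5% of all genes held 1 or more. The p-values are the authors' own, and 15 of the 340 sites were below 0.05, among them 3 in the last exon of BTG2, of which the lowest was 0.0192. Over all sites 4.4%, 2.77% and 3.74% were below 0.05 in lists 1, 2 and 3, so the 15 are near the background.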

How the data were processed

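Per the labels, RNA-seq was made from 3 MSI1 KD and 3 control samples of U251 cells and iCLIP from 3 control samples. The authors deposited raw read counts per gene and per exon, and for iCLIP a list of sites per sample, each 1 base long, with strand, gene and the authors' p-value. Per the submitters' processing notes the genome build was hg18. Which aligner, read counter, strand setting and site caller made the files is not given in the sources used here. None of the 9 genes overlaps another listed gene. The gene for p53 itself is not reported here.

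Gene counts were scaled by TMM, filtered with filterByExpr (13856 genes kept) and tested in R 4.3.3 with edgeR 4.0.16 (quasi-likelihood), with group as the only term (4 residual degrees of freedom), adjusted by Benjamini-Hochberg over all genes tested at a threshold of 0.05. DESeq2 1.42.0 was an alternative. Per-pair differences and likeness use log2 CPM with a prior count of 2, and likeness takes genes with a mean of at least 2. Exon shares are percentages of the exon counts of a gene. Count tests were tried on simulated data. CPM and RPKM were computed here. Precision is limited by the spread over 3 libraries per group, and iCLIP counts carry counting error with no input.

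Deviations from the group means of same-numbered libraries correlated at 0.32, 0.73 and 0.75, and the numbers in the titles were read as pairing the libraries. The deviations within a group are not independent, and control replicate 3 was unlike the others, so these correlations cannot show a pairing. The labels do not say what a number stands for. Fits that block on this number have 2 residual degrees of freedom and are printed where they bear on a call. Control replicate 1 correlated more with MSI1 KD replicate 2 (0.49). The 9 genes and the gene lists were chosen with earlier results of these data known. All 9 genes are described, and of each other list up to 5 genes by adjusted p among those passing with or without the block. BTG1, MDM4 and marker genes are named outside this rule. Sequences are from RefSeq and GENCODE, and no hg18 genome was used, so bases at iCLIP positions are not shown.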

Additional observations from a re-analysis of the deposited data

How the results depend on the processing

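For the 9 genes, 0 changed by edgeR's quasi-likelihood test, and the count was 2 with DESeq2, 3 with the replicate block and 0 to 3 when 1 library was left out, 3 being without control replicate 3. It was 0 with DESeq2's size factors, without the filter and with exon counts summed per gene. Over all genes the count of 232 was 798 with DESeq2, 2398 with the replicate block and 0 to 1028 when 1 library was left out, 0 without MSI1 KD replicate 1 and 1028 without control replicate 3. In the other lists, by edgeR's test without the block, PMAIP1, USP7 and SOX2 were called with and without control replicate 3, and RPRM, RRM2B, DRAM1, SESN2, CCNE2, CDK6, SESN3, TP53INP2, CCNG2, TOB2, SNAP25, KDR and COL1A1 only without it (a comparison chosen after seeing the data). The log2 fold change reversed in MDM2 without control replicate 3 (0.027, range −0.33 to 0.027 over the libraries left out) and in ZMAT3 without MSI1 KD replicate 2 (−0.060, range −0.060 to 0.20), neither past the threshold. It kept its sign in the other 7 genes and in the genes of other lists that the text names with a fold change, under the alternatives run. Exon calls in the 9 genes were 0 under every alternative, the replicate block among them, but the exon test was conservative over all exons. Positions in all 3 iCLIP lists were 0 in the 9 genes, 1 within 5 bases, 2 for at least 2 lists, and 0 to 1 when 1 list was left out. The cause of these differences was not tested. Fits without 1 library also have fewer replicates. Levels per length moved by more than 1 SD in 5 of 36 values, all with exon counts. GDF15 had the lowest gene counts of the 9, at 119 to 303, and CDKN1A and GDF15 had the fewest iCLIP sites (8 and 1). The part of depth in their error was not tested.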
